A study of Homo sapiens with 10 samples.

Results

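The genes described here are 49 listed genes of the cell cycle, of replication licensing and of mitosis, out of 19974 protein-coding genes in the RefSeq table of GRCh38. They were chosen by name, and each was read as the percent of the gene, with 1 kb added at both ends, that lay under RNA-DNA hybrid peaks. The peaks came from DRIP-seq of U2OS, a human osteosarcoma cell line, in which the S9.6 antibody pulls hybrids of RNA and DNA (R-loops) out of sonicated nucleic acids before sequencing. The series compared WT cells with cells of the genotype TDP1 H493R (SCAN1), the change in the DNA end-repair enzyme TDP1 behind a spinocerebellar ataxia, and its question is the repair of double-strand breaks made by transcription. The 5 libraries with peak lists came from 2 experiments. Experiment 1 held WT and SCAN1#1, and experiment 2 held WT, SCAN1#1 and another mutant line, SCAN1#2. No treatment is named in the labels for any group. The labels give another antibody lot for experiment 2 than for experiment 1, so lot and experiment cannot be told apart. They do not say whether the SCAN1 lines are single clones or whether replicates were separate cultures, so p-values measure only the spread between these libraries, which may be technical.

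Cells enter the cycle when cyclin D with CDK4 loosens the hold of the retinoblastoma protein on E2F transcription factors, which then switch on genes for DNA synthesis and for the MCM helicase. Later in the cycle, FOXM1 and MYBL2, with the MuvB complex, drive the genes of mitosis, many of which carry the CHR and CCAAT elements near their start. R-loops form where a nascent transcript pairs again with its template strand, commonly just downstream of the start and near the end of transcribed genes.

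Promoter windows of 4 of the listed genes are shown first, because hybrid peaks reached these windows in all 5 libraries and because these genes were among the 10 with the highest coverage. Each window runs from 250 bases before to 50 bases after the start in RefSeq on GRCh38.p14, 5' to 3' along the gene. Capitals mark matches, on either strand, to the CHR element (TTTGAA), the CCAAT box (CCAAT), the E2F cores (TTGGCGC and TTCCCGC) and the SP1 core (GGGCGG). CDC20 lies at chr1:43358731-43359030 on the plus strand, MCM7 at chr7:100101348-100101647 on the minus strand, UBE2S at chr19:55407739-55408038 on the minus strand and CKS1B at chr1:154974431-154974730 on the plus strand.
CDC20: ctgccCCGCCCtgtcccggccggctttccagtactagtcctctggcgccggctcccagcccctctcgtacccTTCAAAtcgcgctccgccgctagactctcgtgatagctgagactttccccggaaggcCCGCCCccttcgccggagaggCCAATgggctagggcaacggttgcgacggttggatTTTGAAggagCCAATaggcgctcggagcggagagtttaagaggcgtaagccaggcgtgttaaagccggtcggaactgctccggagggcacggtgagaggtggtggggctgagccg
MCM7: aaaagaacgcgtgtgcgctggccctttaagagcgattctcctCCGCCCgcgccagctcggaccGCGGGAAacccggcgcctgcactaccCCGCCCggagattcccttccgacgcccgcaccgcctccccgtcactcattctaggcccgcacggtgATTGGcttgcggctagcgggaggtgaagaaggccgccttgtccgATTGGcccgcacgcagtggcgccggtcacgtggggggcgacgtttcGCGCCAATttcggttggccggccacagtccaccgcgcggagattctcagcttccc
UBE2S: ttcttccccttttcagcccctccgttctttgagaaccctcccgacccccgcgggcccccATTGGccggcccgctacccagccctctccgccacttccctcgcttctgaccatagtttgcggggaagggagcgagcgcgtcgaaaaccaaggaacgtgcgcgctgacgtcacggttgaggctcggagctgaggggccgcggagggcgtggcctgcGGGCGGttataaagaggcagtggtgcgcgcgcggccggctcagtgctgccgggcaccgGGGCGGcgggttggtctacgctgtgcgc
CKS1B: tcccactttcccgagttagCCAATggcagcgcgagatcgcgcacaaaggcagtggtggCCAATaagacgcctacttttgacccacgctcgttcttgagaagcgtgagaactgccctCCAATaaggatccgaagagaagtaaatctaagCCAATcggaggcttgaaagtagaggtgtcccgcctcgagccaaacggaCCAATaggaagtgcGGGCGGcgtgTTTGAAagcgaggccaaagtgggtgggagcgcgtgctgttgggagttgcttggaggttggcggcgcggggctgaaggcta

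The CDC20 window held 2 CHR matches and 2 CCAAT boxes, and the CKS1B window held 1 CHR match and 5 CCAAT boxes. The MCM7 window held 2 E2F cores and no CHR match, and 1 of its E2F cores overlapped a CCAAT box in the run GCGCCAAT. The UBE2S window held a CCAAT box and 2 SP1 cores. The whole of the CDC20 and MCM7 windows, 300 bases each, lay under peaks in every library. The MCM7 window lies wholly inside a neighbouring coding gene, AP4M1, and peaks cannot be assigned to either gene. In UBE2S the covered part was 43 bases in WT of experiment 1 and 300 in each of the other libraries. In CKS1B it was 300 bases in both libraries of experiment 1, 219 in WT of experiment 2, and 122 and 119 in SCAN1#1 and SCAN1#2 of experiment 2.

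Of the 49 listed genes, 40 had a window in the RefSeq promoter table. The CHR letters were in the windows of 15 of them (37.5%), against 15.8% of the 15812 protein-coding genes with a window. CCAAT boxes were in 30 (75%, against 42.1%), an E2F core in 14 (35%, against 14.8%) and the SP1 core in 30 (75%, against 64.2%). The median GC content of the windows was 63.8% in the listed genes and 62.3% in all. A match is only a match of letters, and no binding was measured.

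Hybrid peaks covered the listed genes more widely than the average gene in every library. Over all 49, mean coverage was 30.3% in WT and 28.2% in SCAN1#1 of experiment 1. In experiment 2 it was 24.4% in WT, 22.2% in SCAN1#1 and 19.7% in SCAN1#2. Over all 19974 protein-coding genes the range was 6.54% to 9.08%, as the plot of mean coverage by library shows. A peak was present in all 5 libraries in 43 of the 49 genes (87.8%), against 47.9% of all protein-coding genes. Mean coverage passed 50% in 8 of them (16.3%), against 4.28% of all. No base of KIF20A was covered in any library.

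Coverage was higher in the listed genes within each class of gene length. Below 10 kb, 13 listed genes had a mean of 47.5% against 15.04% of all genes of that length, and between 10 and 30 kb, 20 listed genes had 25.6% against 8.78%. From 30 to 100 kb the values were 6.32% for 14 listed genes and 3.41% for all, and from 100 kb upward 2.50% for 2 listed genes and 1.15% for all. The listed genes had a median length of 19165 bases.

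**Figure D1:**
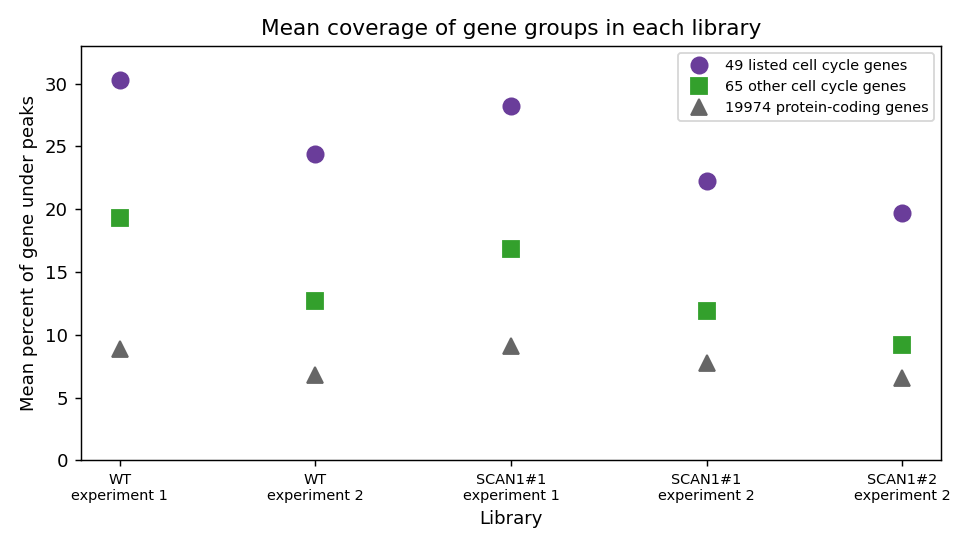
Mean percent of gene under peaks (y axis, 1 kb added at both ends) in each of the 5 libraries (x axis) for the 49 listed genes, 65 other cell cycle genes and all 19974 protein-coding genes. The listed genes lie between 19.7% and 30.3%, above both other groups in every library, and lowest in SCAN1#2.

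The libraries differed in ways that touch these values. The deposited lists held 63456 to 110745 peaks, and every list was therefore cut to its 63456 strongest peaks, which covered 40.7 to 46.5 Mb. The lowest -log10 p kept was 6.13 in WT and 3.87 in SCAN1#1 of experiment 1. In experiment 2 it was 7.69 in WT, 9.92 in SCAN1#1 and 7.75 in SCAN1#2, so weaker peaks were kept in experiment 1. Of 10 markers of osteosarcoma and mesenchymal cells, 9 had a peak in at least 1 library and COL1A2, a defining collagen gene, was at 0 in all 5. The mean coverage of these markers was 15.9% and 21.3% in the WT libraries and 10.7% to 13.9% in the SCAN1 libraries, so these means did not overlap. By gene, COL1A1 (55.8% and 66.7% in WT, 9.09% to 35.9% in SCAN1), THY1 (44.1% and 51.1%, 17.2% to 20.3%) and RUNX2 were lower in every SCAN1 library. TGFBI was higher (0 and 0.934%, 7.10% to 16.7%), and SPARC, VIM, CD44, FN1 and ALPL overlapped. The part of these differences in the results below was not tested. Markers of liver (2 genes) were at 0. Those of blood (4 genes) had a mean of at most 0.144%, and PTPRC among them had 0.576% in SCAN1#2. Markers of epithelium (4 genes) had a mean of 2.99% to 5.31% and those of neurons (3 genes) of 2.78% to 3.80%. KRT5 was at 0, EPCAM had 6.72% to 9.72% and SYP 5.23% to 8.36%. Of 4 genes used as high controls for hybrids, ACTB was covered over 100% in all 5, RPL13A over 72.9% to 100%, CALM3 over 12.7% to 52.4% and EGR1 over 8.36% to 28.2%, and the 3 low controls were at 0. In bulk libraries, fewer cells with a hybrid at a gene and fewer hybrids per cell cannot be told apart, and the share of cells in each phase of the cycle was not measured.

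**Figure D2:**
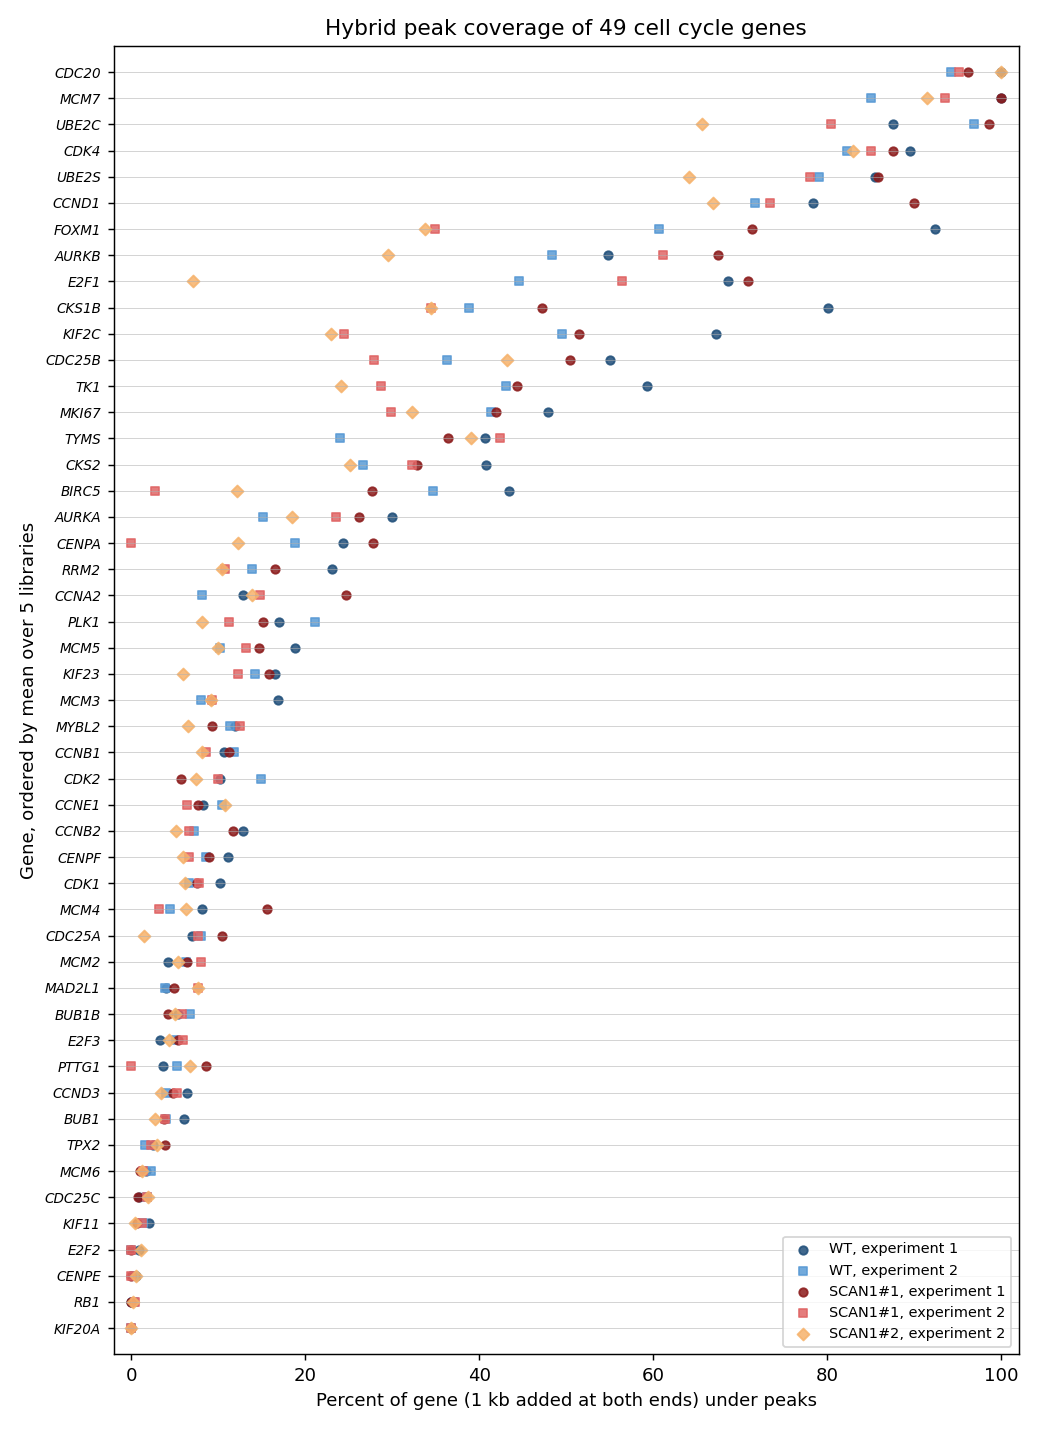
Percent of each of the 49 listed genes under peaks (x axis), 1 row per gene ordered by the mean of the 5 libraries, with 1 point per library. Coverage runs from 97.1% on average in CDC20 to 0 in KIF20A, and the points of E2F1, FOXM1, CKS1B and BIRC5 lie far apart.

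Among the regulators, FOXM1 and E2F1 were widely covered and RB1 and E2F2 were almost bare. FOXM1 (chr12:2857680-2877174), the transcription factor of the G2 and M programme, was covered over 92.3% in WT and 71.4% in SCAN1#1 of experiment 1. In experiment 2 the values were 60.7% in WT, 34.9% in SCAN1#1 and 33.8% in SCAN1#2. SCAN1 was thus below WT in both experiments, and experiment 2 below experiment 1, while SCAN1#1 of experiment 1 lay above WT of experiment 2. The group means were 76.5% ± 22.4 (SD, n = 2) in WT and 46.7% ± 21.4 (SD, n = 3) in SCAN1. The difference of -29.8 points (SE 16.7) had a limma adjusted p of 1.0, by Benjamini-Hochberg over all 8472 genes tested. It was -14.0 points without WT of experiment 1, -45.6 without WT of experiment 2, and -6.41 with gene ends only. In the lists as deposited it was -22.7 points. Leaving out a WT library, here and below, sets SCAN1 of both experiments against WT of a single experiment. Such values therefore also hold the difference between experiments. Differences of group means over all 5 libraries hold part of it too. A larger share of SCAN1 than of WT libraries came from experiment 2. With experiment as a block the FOXM1 difference was -24.0 points (SE 5.59). A stretch of 2648 bases inside the gene was under a peak in all 5 libraries. Of the FOXM1 window, 23.4% is shared with ITFG2, RHNO1 and TEX52, and over the rest the WT mean was 72.6% and the SCAN1 mean 37.8%.

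E2F1 (chr20:33675477-33686385), which activates genes of DNA synthesis, was covered over 68.6% and 44.5% in WT and over 70.8% and 56.4% in SCAN1#1, of experiments 1 and 2. In SCAN1#2 it was covered over 7.07%, and over 29.7% in that library's list before it was cut. SCAN1#2 was thus the only library below 44.5%, and the SCAN1 lines lay on opposite sides of WT of experiment 2. The mean difference between SCAN1 and WT was -11.8 points (SE 21.6), with a limma Benjamini-Hochberg adjusted p of 1.0. RB1 (chr13:48303751-48481890), the brake on E2F, was at 0 in both libraries of experiment 1 and at 0.345%, 0.491% and 0.268% in WT, SCAN1#1 and SCAN1#2 of experiment 2. E2F2 (chr1:23505212-23531233) had 0.864% in WT of experiment 1, 1.19% in SCAN1#2 and 0 in the rest. Both genes were therefore too thinly covered to be tested. MYBL2, the partner of the MuvB complex, had 6.54% to 12.5%, and E2F3 3.37% to 5.95%.

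Among cyclins, CDKs and their subunits, all 11 genes had a peak in all 5 libraries. CDK4 (chr12:57747727-57752310), the G1 kinase, was covered over 89.6% and 82.3% in WT, 87.5% and 85.1% in SCAN1#1 and 83.0% in SCAN1#2. These values overlapped and lay close together. Of the CDK4 window, 53.1% is shared with TSPAN31, and in the rest coverage was 62.3% to 77.8%. CCND1 (chr11:69641156-69654474), the cyclin that activates CDK4, was covered over 78.4% and 71.7% in WT, 90.0% and 73.4% in SCAN1#1 and 66.9% in SCAN1#2. For CCND1, too, the groups overlapped, with SCAN1 libraries holding the highest and the lowest value. CKS1B (chr1:154974681-154979251), a small CDK-binding subunit, was covered over 80.1% and 38.8% in WT, 47.3% and 34.5% in SCAN1#1 and 34.5% in SCAN1#2. All 3 SCAN1 libraries were below WT of their own experiment, by differences of -32.8 points in experiment 1 and of -4.31 and -4.35 in experiment 2. The difference of means was -20.7 points (SE 14.97), and -16.5 (SE 9.02) with experiment as a block. Without WT of experiment 1 the difference of means was -0.0710 points, but this sets SCAN1#1 of experiment 1 against WT of experiment 2.

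CCNA2 (chr4:121816444-121823883), the cyclin of S and G2 phase, went the other way. It was covered over 12.9% and 8.19% in WT, 24.7% and 14.8% in SCAN1#1 and 13.9% in SCAN1#2, so every SCAN1 library was above both WT libraries. The difference was 7.26 points (SE 4.78) and had a limma Benjamini-Hochberg adjusted p of 1.0, and of 0.751 with experiment as a block. Without SCAN1#1 of experiment 1 it was 3.81 points. In the lists as deposited the groups overlapped, with 18.5% and 8.19% in WT, 24.7% and 19.5% in SCAN1#1 and 13.9% in SCAN1#2. The mitotic kinase gene CDK1 and its cyclins CCNB1 and CCNB2 were covered over 5.17% to 12.8%, and CDK2 over 5.74% to 14.9%. Of the 11 genes in this group, 9 had a lower mean in SCAN1 and 2 a higher one, and none passed the test.

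The genes of the anaphase-promoting complex pathway held the widest coverage of any role group, with a mean of 48.8% to 58.8% over 5 genes. CDC20 (chr1:43358981-43363203), which activates the complex, was covered over 100% and 94.2% in WT, 96.1% and 95.1% in SCAN1#1 and 100% in SCAN1#2. It ranked 34 among all protein-coding genes by mean coverage, and its WT and SCAN1 means were both 97.1%. The gene ELOVL1 shares 803 bases of the CDC20 window, and in the rest coverage was 93.3% to 100%. UBE2C (chr20:45812644-45816952), which starts ubiquitin chains for the complex, had 87.5% and 96.9% in WT, 98.5% and 80.5% in SCAN1#1 and 65.6% in SCAN1#2. UBE2S (chr19:55399745-55407788), which extends those chains, had 85.5% and 79.1% in WT, 85.8% and 78.0% in SCAN1#1 and 64.1% in SCAN1#2. In both E2 enzyme genes SCAN1#2 was the lowest library and SCAN1#1 of experiment 1 the highest, so WT lay between the SCAN1 libraries. The ribosomal protein gene RPL28 shares 4598 bases of the UBE2S window, and in the rest coverage was 68.4% to 82.4%. PTTG1, which encodes securin, and the checkpoint gene MAD2L1 were covered over at most 8.57%.

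Among 5 mitotic kinase genes, AURKB (chr17:8204731-8210575), the kinase of the chromosomal passenger complex, was covered the most. Its values were 54.8% and 48.4% in WT, 67.4% and 61.1% in SCAN1#1 and 29.5% in SCAN1#2. Both SCAN1#1 libraries were above both WT libraries and SCAN1#2 was below them, and the difference of means was 1.10 points (SE 14.2). AURKA was covered over 15.2% to 29.98% with overlapping groups. PLK1, which drives mitotic entry, had 17.05% and 21.2% in WT, 15.1% and 11.3% in SCAN1#1 and 8.21% in SCAN1#2. Every SCAN1 library was below both WT libraries in PLK1 and in BUB1, and both differences had a limma Benjamini-Hochberg adjusted p of 1.0. In the lists as deposited this held for PLK1 but not for BUB1, where SCAN1#1 of experiment 2 had 5.67% and WT of the same experiment 5.63%. Of the 3 CDC25 phosphatase genes, CDC25B was covered over 27.9% to 55.0%, with overlapping groups, CDC25A over 1.497% to 10.4% and CDC25C over at most 1.94%.

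Among 10 genes of kinetochore, spindle and chromosome proteins, 6 of 7 tested genes had a lower mean in SCAN1. BIRC5 (chr17:78214253-78225635), which encodes survivin of the chromosomal passenger complex, was covered over 43.4% and 34.7% in WT, 27.7% and 2.73% in SCAN1#1 and 12.1% in SCAN1#2. Every SCAN1 library was below both WT libraries, and BIRC5 was the only one of the 42 tested listed genes whose SCAN1 libraries were all below WT with means at least 10 points apart (2.38%, against 1.24% of all genes tested). In the other direction there was none, against 1.85% of all. The means were 39.0% ± 6.19 (SD, n = 2) in WT and 14.2% ± 12.6 (SD, n = 3) in SCAN1, a difference of -24.8 points (SE 9.15). In limma its unadjusted p was 0.0389 and its Benjamini-Hochberg adjusted p 1.0. With gene ends only the difference was -8.65 points. Before the lists were cut to equal length the 3 SCAN1 values were 27.7%, 24.2% and 17.9%, still below both WT values. In the cut lists the peaks of BIRC5 fell into 7 to 8 separate stretches in WT, 6 and 1 in SCAN1#1 and 3 in SCAN1#2. Only 204 bases were under a peak in all 5 libraries. The lists as deposited held 8 and 7 peaks there in WT, 6 and 5 in SCAN1#1 and 4 in SCAN1#2.

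KIF2C (chr1:44739837-44767767), a kinesin that takes microtubules apart at kinetochores, was covered over 67.2% and 49.5% in WT, 51.5% and 24.5% in SCAN1#1 and 22.99% in SCAN1#2. As in FOXM1, SCAN1 was below WT within each experiment while the groups overlapped across experiments. The difference of means was -25.3 points (SE 13.3), with a limma Benjamini-Hochberg adjusted p of 1.0, and it was -16.5 without WT of experiment 1. In the lists as deposited it was -18.7 points. MKI67 (chr10:128096659-128126423), which encodes the Ki-67 coat of mitotic chromosomes, was covered over 47.9% and 41.4% in WT, 41.9% and 29.9% in SCAN1#1 and 32.3% in SCAN1#2. The same order held within each experiment, and the difference of means was -9.94 points (SE 9.11). A stretch of 7785 bases inside MKI67 (chr10:128101892-128109676) was under a peak in every library, the longest such stretch among the listed genes. KIF20A (chr5:138179112-138187723), a cytokinesis kinesin, was at 0 in all 5 libraries. In the lists as deposited it had 1 weak peak in each of 3 libraries, with fold enrichments of 3.86, 4.17 and 4.32. CENPE (chr4:103105811-103198343), a kinetochore kinesin, had at most 0.560%, and KIF11 (chr10:92593130-92655395), the kinesin that separates the spindle poles, 0.439% to 2.03%.

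Of the 3 genes for nucleotide supply, TK1 (chr17:78174079-78187204), thymidine kinase, was covered over 59.3% and 43.1% in WT, 44.4% and 28.7% in SCAN1#1 and 24.1% in SCAN1#2. SCAN1 was below WT in each of the comparisons within an experiment, and the difference of means was -18.8 points (SE 11.2), with a limma Benjamini-Hochberg adjusted p of 1.0. Without WT of experiment 1 it was -10.7 points. TK1 and BIRC5 lie 27.0 kb apart on chromosome 17 and are therefore neighbours in the genome. TYMS, thymidylate synthase, was covered over 40.6% and 24.04% in WT, 36.4% and 42.3% in SCAN1#1 and 39.1% in SCAN1#2, and 64.7% of its window is shared with ENOSF1. RRM2, the small subunit of ribonucleotide reductase, was covered over 10.49% to 23.1%.

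The 6 MCM helicase genes all had a peak in all 5 libraries, yet only MCM7 was widely covered. MCM7 (chr7:100092728-100101397) had 100% and 84.99% in WT, 100% and 93.5% in SCAN1#1 and 91.5% in SCAN1#2. The groups overlapped, and coverage was 100% in both libraries of experiment 1. The other MCM genes were covered over 1.05% to 18.8%. MCM7 hosts MIR25, MIR93 and MIR106B inside its body, and 8983 of its window's bases were under a peak in all 5 libraries. Of the MCM7 window, 19.3% is shared with COPS6 and AP4M1, and in the rest coverage was 83.8% to 100%.

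Where along the gene the peaks lay differed between the listed genes. A start was known for 40 of them, and the share of these whose promoter window touched a peak was 45% to 57.5% by library, against 19.2% to 22.2% of all genes with a window. In 12 of the 40 (30%) this held in all 5 libraries, against 12.6% of all genes. Within 1 kb of the start, 36.7% to 43.6% of bases were covered, against 12.7% to 15.03% in all genes. Coverage was highest 525 bases past the start, where on average 62.5% of the listed genes were under a peak. In all genes the highest value was 20.5%, at 425 bases. The profiles of experiment 1 reached 72.5% in both lines, and those of experiment 2 57.5% to 65%.

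**Figure D3:**
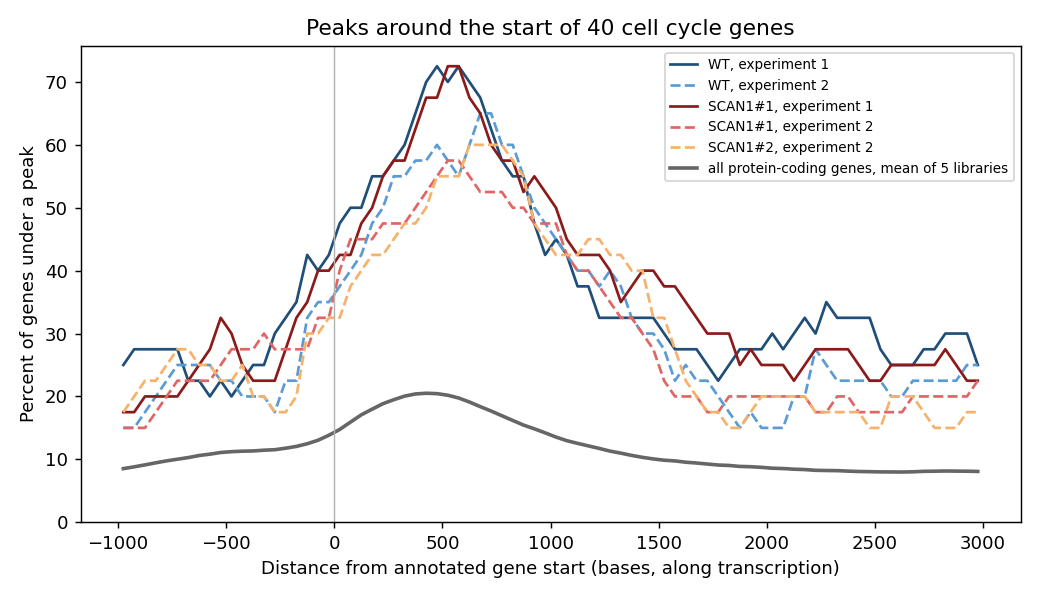
Percent of genes under a peak (y axis) by distance from the annotated start along transcription (x axis, bases), for 40 listed genes in each of 5 libraries and for all protein-coding genes as a mean of the libraries. All 5 lines of the listed genes rise after the start to 57.5% to 72.5%, and the line of all genes to 20.5%.

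The strongest peak of a gene, by the authors' fold enrichment in the lists as deposited, had its summit within 1 kb of the start in all 5 libraries in 10 of the 36 genes with a known start and a peak in every list. These were CCNA2, CCNB1, CDC20, CDK1, CENPA, CKS1B, CKS2, E2F3, MAD2L1 and PTTG1. The same count was not made over all protein-coding genes, so nothing particular to the listed genes can be read from it. In MAD2L1 the summit ranged from -606 to 644 bases. In the lists of equal length, no base of MAD2L1, CENPA or PTTG1 was under a peak in all 5 libraries. In CDK1 the summit lay 289 to 324 bases past the start and in CKS2 270 to 489 bases past it. In CDC20 it lay upstream, at -547 to -495 bases from the start, inside the neighbouring long noncoding RNA gene CDC20-DT. CDK1, the main kinase of mitosis, shows the pattern of a gene with its peak at its start. Its largest stretch was 1145 to 1446 bases long in the 5 libraries, its highest fold enrichment was 22.98 to 46.0, and yet the gene was covered over only 6.18% to 10.2%. CDC20 had fold enrichments of 29.9 to 69.3 and was covered over 94.2% to 100%. A low percent therefore does not mean a weak peak.

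In TK1 and MKI67 the shared peaks lay away from the start. The last 1 kb of TK1 and the 1 kb beyond it were covered over 100% in all 5 libraries, while its start was covered over 48.4%, 26% and 23.8% in WT of experiments 1 and 2 and SCAN1#1 of experiment 1, and not at all in both SCAN1 libraries of experiment 2. In MKI67 the strongest peak had fold enrichments of 35.3 to 45.6. The map of peaks over 6 genes shows these patterns.

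**Figure D4:**
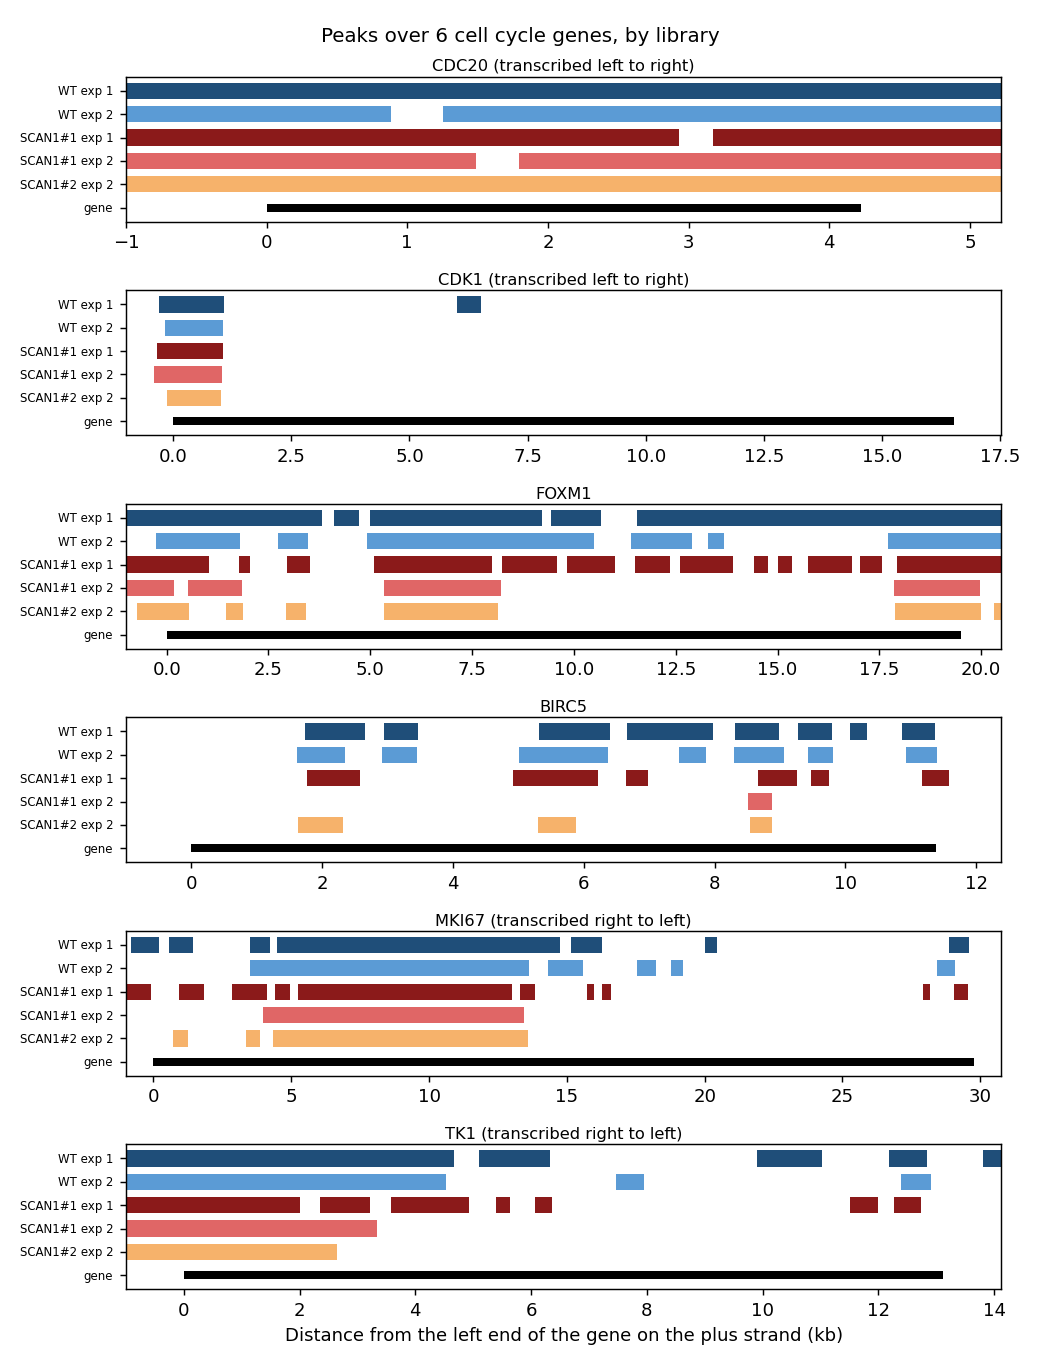
Peaks of the equal-length lists (bars, 1 row per library) over CDC20, CDK1, FOXM1, BIRC5, MKI67 and TK1 (black bars) with 1 kb added at both ends, against distance in kb from the left end of the gene. CDC20 is covered over 94.2% to 100%, with a gap in 3 libraries, and CDK1 mainly at its start, MKI67 and TK1 share their peaks toward their ends, and FOXM1 and BIRC5 have fewer covered bases in SCAN1 of experiment 2 than in WT.

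The comparison of SCAN1 with WT asks whether the TDP1 change goes with other hybrid coverage of these genes. In limma on the percent covered, 0 of 8472 protein-coding genes tested (0%) passed a Benjamini-Hochberg adjusted p of 0.05, and so 0 of the 42 listed genes that had a mean of at least 2% and were tested. Without adjustment, 1 listed gene (BIRC5) was lower at p below 0.05 and 0 higher, against 1.55% and 1.94% of all genes tested. With experiment as a block, again 0 of 8472 genes (0%) were called, and without adjustment 5 listed genes were lower (FOXM1, CDK2, KIF2C, BIRC5 and TK1) and 1 higher (CCNA2), against 2.60% and 3.52% of all. The lowest adjusted p of a listed gene in that limma fit was 0.742.

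Of the 42 tested genes, 29 (69.0%) had a lower mean in SCAN1, against 48.4% of all genes tested, and the median difference was -1.87 points against 0.0810. These group means were not blocked by experiment, so their differences also hold part of the difference between experiments. All SCAN1 libraries were below both WT libraries in 4 (9.52%), against 6.86% of all genes tested. These were BIRC5, PLK1, CDK2 and BUB1. They were above both in 2 (4.76%), CCNA2 and MAD2L1, against 9.48%. The share below lay near that of all genes. Without WT of experiment 2 the count below was 21 of 42, against 27.8% of all genes, and without SCAN1#1 of experiment 1 it was 17 of 42, against 17.1%. Leaving out a library drops a condition, so apart from the coverage filter the count can only rise. With each library left out in turn it was 5 to 21, and the share over all genes was computed for these omissions only. At a -log10 q of at least 5 the count below was 10 of 42, against 5.43%, and with gene ends only 9 of 46, against 5.28%. That q left lists of unequal length, with 34628 to 88912 peaks. In the deposited lists the count below was 6 of 44, against 5.7%, and 2 of 44 were above, against 8.43%. The deposited lists kept BIRC5 and PLK1 below, without CDK2 and BUB1, and the genes above were PTTG1 and E2F3 in place of CCNA2 and MAD2L1. Among the 18 listed genes with a mean of at least 20%, 12 had a lower mean in SCAN1 (66.7%, against 55.9% of all such genes). In 1 of these 18 all SCAN1 libraries were below (4.37% of all such genes), in 1 by at least 10 points (3.07%), and 6 (33.3%) were lower in all 3 comparisons within experiments (14%).

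Within experiments, SCAN1 can be set against WT of the same antibody lot in 3 comparisons, of which the ones in experiment 2 share a WT library. Of the 42 genes, 14 (33.3%) were lower in all 3, against 15.8% of all genes tested, and 3 (7.14%) were higher in all 3, against 19.4%. Of 52 other cell cycle genes tested, 17 were lower in all 3 and 4 higher. In FOXM1, KIF2C, BIRC5, TK1 and MKI67 each of the 3 differences was below 0 by at least 5 points. They were -21.0, -25.8 and -26.8 points in FOXM1, and -6.01, -11.5 and -9.05 points in MKI67. Some of these sizes depended on the cut of the lists. In the lists as deposited, FOXM1 in experiment 2 had 62.0% in WT, 52.3% in SCAN1#1 and 39.6% in SCAN1#2. KIF2C had 49.5%, 36.2% and 31.2% there, so in both genes SCAN1#1 lay nearer to WT than in the cut lists. TK1 had 46.3%, 31.4% and 27.5%, about as far apart as in the cut lists. In CCNA2 the differences in the cut lists were 11.8, 6.64 and 5.69 points. Averaged over all 49 genes, SCAN1#1 differed from WT by -2.04 points in experiment 1 and by -2.12 in experiment 2, and SCAN1#2 by -4.65, against 0.202, 0.966 and -0.241 over all protein-coding genes. Across both experiments the difference was -3.92 points over the listed genes and -0.0399 over all. With experiment as a block it was -2.81 points over the listed genes. The unblocked difference over the listed genes was -0.964 without WT of experiment 1 and -6.88 without WT of experiment 2. Unlike the values within experiments, these unblocked values, -3.92 among them, also hold the difference between experiments.

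**Figure D5:**
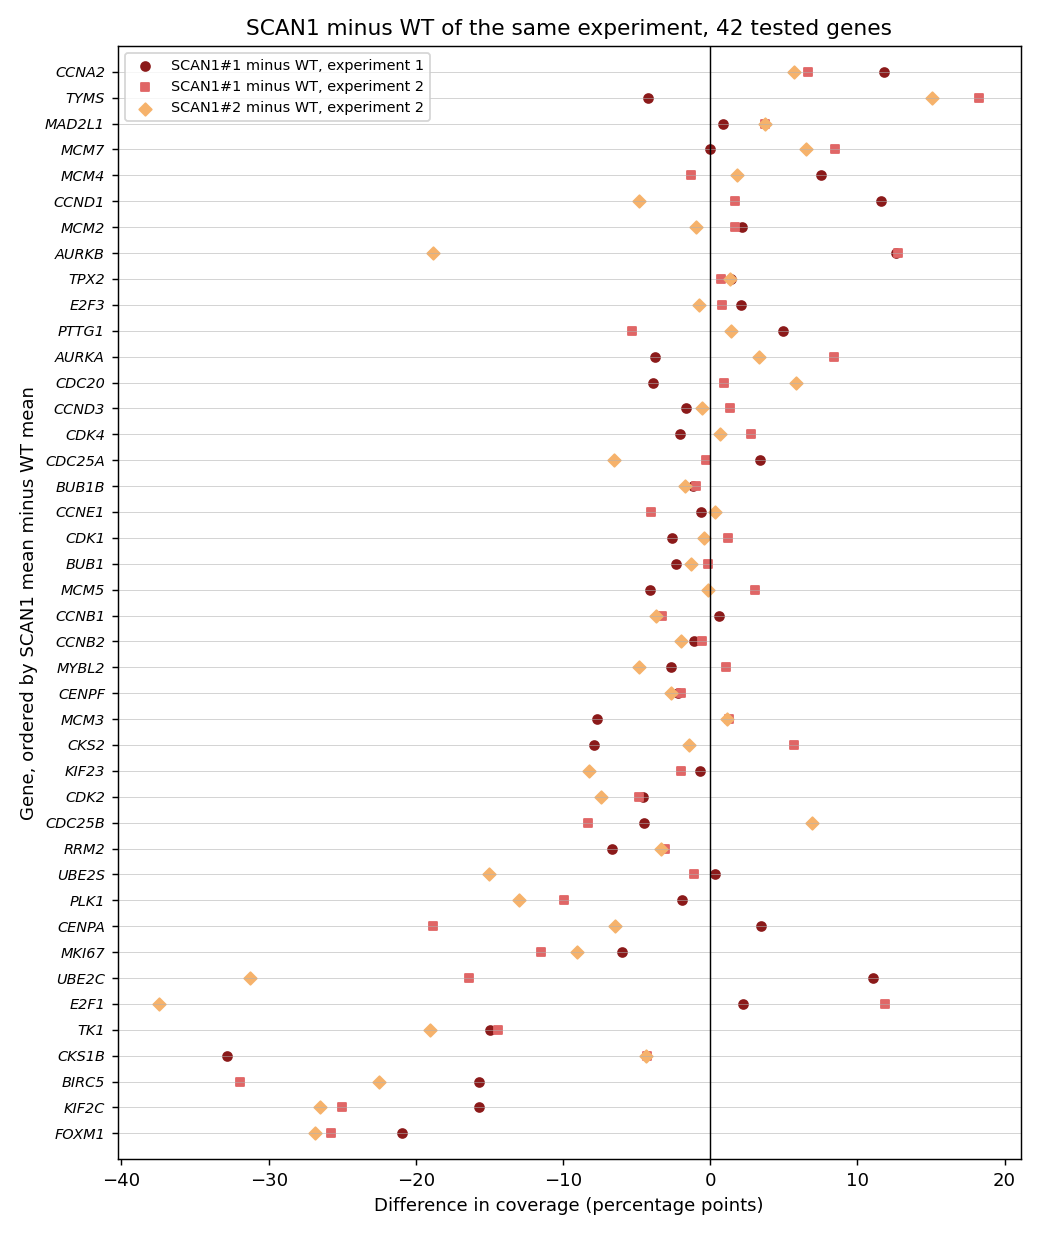
Difference in coverage between SCAN1 and WT of the same experiment (x axis, percentage points) for the 42 tested genes, ordered by the difference of group means, with 1 point per comparison. FOXM1, KIF2C, BIRC5, TK1 and MKI67 lie left of 0 in all 3 comparisons, CCNA2 lies right of 0, and for AURKB and E2F1 the point of SCAN1#2 lies left of 0 and both points of SCAN1#1 right of it.

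Coverage of these genes also differed between the experiments. The cut to equal length kept peaks of lower -log10 p in experiment 1 than in experiment 2, and its part in this was not tested. The mean over the 49 genes was lower in experiment 2 than in experiment 1 in both lines present in both, with differences of -5.91 points in WT and -6.00 in SCAN1#1, against -2.09 and -1.33 over all protein-coding genes. The mean of both differences was -5.95 points, and it was -3.83 in the lists as deposited and -2.55 at a -log10 q of at least 5. In limma with genotype in the model, 0 of 8472 genes (0%) passed a Benjamini-Hochberg adjusted p of 0.05, and the lowest adjusted p of a listed gene was 0.103, in FOXM1. Its fitted difference between experiments was -34.7 points (SE 5.59), and that of MCM7 -10.7 points (SE 2.90). Without adjustment, 10 listed genes were lower at p below 0.05 and 0 higher, against 17.8% and 3.71% of all. In 20 of the 42 (47.6%) every library of experiment 2 was below both of experiment 1, against 28.1% of all genes tested, and in 0 every library was above, against 13.2%. Of 52 other cell cycle genes tested, 23 lay below in this way and 3 above. The share below differed with the level of coverage. Among genes with a mean of at least 20%, it was 13 of 18 listed genes and 49.6% of all 2310 genes. Before the lists were cut it was 13 of 44 listed genes, against 16.6% of all, and 15 listed genes were then lower in SCAN1 in all 3 comparisons within experiments, against 14.6%. At a -log10 q of at least 5, 9 of 42 listed genes had every library of experiment 2 below, against 12.9%, and with gene ends only 12 of 46, against 19.4%.

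An interaction term of genotype and experiment was also fitted. For it limma called 0 of 8472 genes (0%), with a lowest Benjamini-Hochberg adjusted p of 0.703 among the listed genes. SCAN1#2 was in experiment 2 only, so the term cannot tell a change between experiments from a difference between the SCAN1 lines. In AURKB, SCAN1#1 was above WT by 12.6 points in experiment 1 and 12.7 in experiment 2, yet the interaction was -15.6 points. This fit left 1 residual degree of freedom per gene, so its power is low.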

How the data were processed

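The 5 deposited peak lists follow the narrowPeak layout. The submitters' processing notes name MACS3 3.0.0a6, BWA 0.7.17-r1188, deepTools 3.5.1 and SAMtools 1.9 on hg38, listed without roles. For control, options of the caller and read depth, these notes and the labels state nothing. The authors' deposited values per peak are a score, a fold enrichment (a ratio), a -log10 p and a -log10 q, which was at least 2.00 in every deposited list. The 5 input samples are not analysed here.

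Each list was cut to the 63456 peaks of highest -log10 p, the length of the shortest. The percent of each RefSeq gene (GRCh38.p14, 1 kb added at both ends) under peaks was computed with Python 3.11.15, and every protein-coding gene averaging 2% or more entered limma 3.58.1 (eBayes with a trend) in R 4.3.3, with Benjamini-Hochberg adjustment over 8472 genes, after a check on simulated data. Peaks carry no strand, so genes that overlap cannot be separated. The 49 genes, the lists and the tests were chosen with earlier results of these data known.

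Named genes were the 10 of highest and 5 of lowest mean coverage, those whose groups lay apart by at least 10 points, those at least 5 points apart in one direction in all 3 comparisons within experiments, and any called. Other genes with values were chosen after their values were seen. Replicate numbers are experiment numbers, so they pair the libraries. Deviations from group means correlated by 0.612 (WT and SCAN1#1, experiment 1), 0.325 (WT and SCAN1#1, experiment 2) and 0.470 (WT and SCAN1#2, experiment 2) across genes, which are not independent replicates. Deviations within a group sum to 0, so these correlations are tied to each other and are not separate checks of the pairing. Alternatives were the deposited lists, a -log10 q of at least 5, no flank, gene ends only and a log2 scale with 1 added to the percent. Others were no coverage filter, a filter at 5%, SCAN1#1 alone, the replicate block and leaving out each library.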

Additional observations from a re-analysis of the deposited data

How the results depend on the processing

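No alternative called a listed gene. On the log2 scale 4 genes were called for SCAN1 and 2 for experiment, none of them listed. With the replicate block, which the pairing by experiment allows, 0 genes were called and the mean difference over the listed genes was -2.81 points. Leaving out a library gave -6.88 to -0.964 points for SCAN1. The experiment difference is the mean of those of WT and SCAN1#1, so leaving out a library of either line returns that of the other. Its range of -6.00 to -5.91 points was thus fixed by the method and cannot be set against the SCAN1 range. It was -5.95 with all libraries, -3.83 in the deposited lists and -2.55 at the stricter q.

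The count of tested genes with all SCAN1 libraries below both WT was 4, and 10 at a -log10 q of at least 5 (5.43% of all genes tested), 9 with gene ends only (5.28%) and 5 to 21 with a library left out. Leaving out a library can only raise it, apart from the coverage filter. The count with all of experiment 2 below experiment 1 was 20, and 13 in the deposited lists, 9 at a -log10 q of at least 5 (12.9% of all) and 12 with gene ends only (19.4%). These counts were added after seeing the data.

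Of 225 alternatives for 15 named tested genes, 199 kept the direction and 26 turned it. This tally overstates agreement. Having no coverage filter, or a filter at 5%, cannot change the difference of a gene. SCAN1#1 alone, with or without the block, repeats the fit that leaves out SCAN1#2. CCND1 was at -0.0185 at the stricter q and -0.188 with gene ends only, MCM7 at -2.12 and AURKB at -14.1 with gene ends only, and AURKB at -0.052 on the log2 scale. CDK4 was at 0.938 without flanks, 0.104 with the replicate block and 0.349 with SCAN1#1 alone, with or without the block. With SCAN1#1 alone, CDC20 was at -1.45 and E2F1 at 7.06, also with the block. With a library left out the ranges were -4.93 to 6.64 for CCND1, -4.38 to 2.89 for CDK4, -2.91 to 2.92 for CDC20, -6.27 to 12.7 for AURKB, -24.8 to 7.06 for E2F1 and -5.01 to 10.0 for MCM7. They were -45.6 to -14.0 for FOXM1, -31.6 to -19.1 for BIRC5, -41.4 to -0.0710 for CKS1B, -26.9 to -10.7 for TK1, -34.6 to -16.5 for KIF2C, -19.2 to -2.68 for UBE2C, -11.3 to -0.398 for UBE2S and 3.81 to 9.62 for CCNA2. With gene ends only FOXM1 was at -6.41, BIRC5 at -8.65, MKI67 at -16.6 and UBE2S at -0.863. The cause was not tested. Read depth is not given, so no counting error could be set.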

Other observations

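Another 65 cell cycle genes, listed by name and outside the 49, were read in the same way. Their mean coverage was 19.3% and 12.7% in WT, 16.8% and 11.9% in SCAN1#1 and 9.22% in SCAN1#2. Of them 52 were tested, 41 with a lower and 11 with a higher mean in SCAN1, and limma with Benjamini-Hochberg adjustment called 0. At an unadjusted p below 0.05, 1 was lower and 0 were higher. All SCAN1 libraries were below both WT libraries in 10 and above both in 4, against 6.86% and 9.48% of all genes tested, and a lower mean was found in 48.4% of all.

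The genes named next were chosen after their values were seen. SPC24, a subunit of the kinetochore complex that binds microtubules, was covered over 82.8% and 50.1% in WT, 64.9% and 30.3% in SCAN1#1 and 12.8% in SCAN1#2. PKMYT1, which encodes a kinase that restrains CDK1, had 86.2% and 51.3% in WT, 72.6% and 45.3% in SCAN1#1 and 41.8% in SCAN1#2. Both were lower than WT within each experiment. CDT1, the licensing factor that loads the MCM helicase, had 93.7% and 86.0% in WT, 82.6% and 85.2% in SCAN1#1 and 69.5% in SCAN1#2, so every SCAN1 library was below both WT libraries. CDKN1A, which encodes the CDK inhibitor p21, had 23.3% and 24.1% in WT, 55.0% and 25.4% in SCAN1#1 and 48.0% in SCAN1#2, so every SCAN1 library was above both. These 4 differences had a limma Benjamini-Hochberg adjusted p of 1.0.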
